A study of Rattus norvegicus with 6 samples.

Results

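The carboxylesterases of rat liver were followed here on 1-colour Agilent microarrays of liver RNA from 6 male Sprague-Dawley rats, with 1 array per animal. The members were the 9 genes Ces1c, Ces1d, Ces1e, Ces1f, Ces2a, Ces2c, Ces2e, Ces2h and Ces2j, and a probe was assigned to a gene when its RefSeq accession mapped to that symbol. By this rule 7 of the 9 genes had a matched probe, with 13 probes in all among 61657 non-control probes. Ces2a and Ces2j had no matched probe and are not analysed here. The 7 genes were well above background on all 6 arrays and made up 7 of the 28995 genes and unnamed transcripts that were tested.

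The comparison is between livers of dosed and undosed animals. Control rats (3) were given corn oil alone, and dosed rats (3) were given 200 mg/kg/day of bromodichloromethane, a trihalomethane formed when water is chlorinated. The rats were of the Crl:CD(SD) stock, bought at 5 weeks of age and kept on a basal diet. The labels give both 28 days and 9 weeks for the study, so the length of dosing is uncertain.

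Carboxylesterases are serine hydrolases of the endoplasmic reticulum that split ester, amide and thioester bonds. In hepatocytes they hydrolyse ester drugs and prodrugs, and several of them also act on triglycerides, cholesteryl esters and retinyl esters. The Ces1 enzymes favour substrates with a large acyl group and a small alcohol group, and the Ces2 enzymes favour the opposite. Rodents carry many more copies of both classes than humans, in tandem arrays of closely related genes.

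The sequences before the start sites are shown for the gene that passed the test, Ces2c, and for the 4 measured Ces1 genes, which carry a shared pair of motifs. Each line gives the 250 bases before the start, from RefSeq on build GRCr8, 5′ to 3′ on the plus strand. Ces2c lies at chr1:270376951-270377200, Ces1c at chr19:30099197-30099446, Ces1d at chr19:30046244-30046493, Ces1e at chr19:30005923-30006172 and Ces1f at chr19:29969383-29969632. Ces1f, Ces1e, Ces1d and Ces1c follow each other in the RefSeq gene order. For Ces1c, RefSeq also holds a transcript model that starts inside this window. Capitals mark every match, on either strand, to 6 short motifs. The forkhead factor core was searched as GTAAAC and the GATA factor core as AGATAA. The CCAAT box was searched by its name's letters, and nuclear receptor motifs as AGTTCA and, in another form, as AGGTCA. The antioxidant response core bound by NRF2 was searched as TGACNNNGC.
Ces2c: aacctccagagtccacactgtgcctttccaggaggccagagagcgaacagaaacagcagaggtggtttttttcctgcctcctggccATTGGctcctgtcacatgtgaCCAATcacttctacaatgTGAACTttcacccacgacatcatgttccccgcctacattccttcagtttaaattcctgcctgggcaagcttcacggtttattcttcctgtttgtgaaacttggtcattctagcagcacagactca
Ces1c: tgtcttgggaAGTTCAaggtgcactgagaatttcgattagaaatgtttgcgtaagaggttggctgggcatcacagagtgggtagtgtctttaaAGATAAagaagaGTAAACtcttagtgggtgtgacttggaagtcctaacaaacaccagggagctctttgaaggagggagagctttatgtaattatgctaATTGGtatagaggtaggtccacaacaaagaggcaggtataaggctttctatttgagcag
Ces1d: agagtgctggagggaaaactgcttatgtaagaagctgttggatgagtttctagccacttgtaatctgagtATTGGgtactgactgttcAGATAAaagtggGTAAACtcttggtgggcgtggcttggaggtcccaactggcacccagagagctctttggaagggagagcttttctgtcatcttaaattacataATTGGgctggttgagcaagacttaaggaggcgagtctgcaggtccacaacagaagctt
Ces1e: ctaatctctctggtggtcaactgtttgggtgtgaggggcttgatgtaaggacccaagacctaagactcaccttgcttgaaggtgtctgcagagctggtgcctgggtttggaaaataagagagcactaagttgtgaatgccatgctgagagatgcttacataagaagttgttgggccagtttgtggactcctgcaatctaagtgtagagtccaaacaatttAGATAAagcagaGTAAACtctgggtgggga
Ces1f: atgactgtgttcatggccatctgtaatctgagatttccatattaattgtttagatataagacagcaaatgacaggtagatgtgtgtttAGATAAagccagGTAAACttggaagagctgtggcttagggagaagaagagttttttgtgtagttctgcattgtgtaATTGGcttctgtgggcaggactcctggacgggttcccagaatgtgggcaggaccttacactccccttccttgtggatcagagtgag

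All 4 Ces1 windows held the GATA core followed by the forkhead core, with the 2 motifs starting 12 bases apart in each. The forkhead core began 145, 150, 18 and 150 bases before the start of Ces1c, Ces1d, Ces1e and Ces1f. Among 33469 rat promoter windows of this length, 7.0% held the forkhead core, 10.3% held the GATA core, and 13 windows, or 0.0388%, held the pair at this spacing, of which 5 belonged to carboxylesterase genes. Of the 3 measured Ces2 genes, Ces2e held the forkhead core on the opposite strand and 0 held the GATA core. Ces2c held AGTTCA on the opposite strand, present in 12.2% of all windows, and the CCAAT box on both strands, present in 34.0%. Neither is particular to Ces2c, since Ces1c also held AGTTCA. The CCAAT box was also in 3 of the 4 Ces1 windows and in Ces2e. The antioxidant response core, present in 10.1% of all windows, and AGGTCA, present in 14.1%, matched in 0 of the 7. The motifs and the spacing of the pair were picked after the sequences had been read. The carboxylesterase genes with the pair are closely related, so their matches are not independent, and the 13 windows include 1 other locus more than once. A match is a string of letters and not a shown binding site.

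The arrays had 75th percentiles of processed signal between 670 and 825 fluorescence units, and no non-control spot was saturated. Between 61.3% and 66.9% of probes were well above background. All 3 corn oil arrays and treated replicate 1 were on slide 1, and treated replicates 2 and 3 were on slide 2, which was scanned separately. Levels below are log2 processed signal minus the 75th percentile of the array, and a level of 0 is that percentile. Differences are treated minus corn oil on this log2 scale. They were fitted with limma, and p-values were adjusted by Benjamini-Hochberg over all 28995 features with a threshold of 0.05. Spread is given as SD over 3 animals and SE is limma's moderated standard error.

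Ces2c was 3.14-fold higher in treated livers and was the 1 of 7 measured members that passed, while none fell and 6 did not pass. Of all features 9.36% passed, and 5.96% passed as higher, so that a single call among 7 genes does not set the members apart from the array. The 3 Ces2 members had differences above 0, from 0.49 to 1.65, and the 4 Ces1 members had differences below 0, from -0.62 to -0.08. Unadjusted p-values were under 0.05 for 4 of the 7, against 27.5% of all features, and the groups did not overlap for 4 of the 7, against 34.4% of all features. The median difference was -0.08 over the members and 0.0014 over all features.

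**Figure D1:**
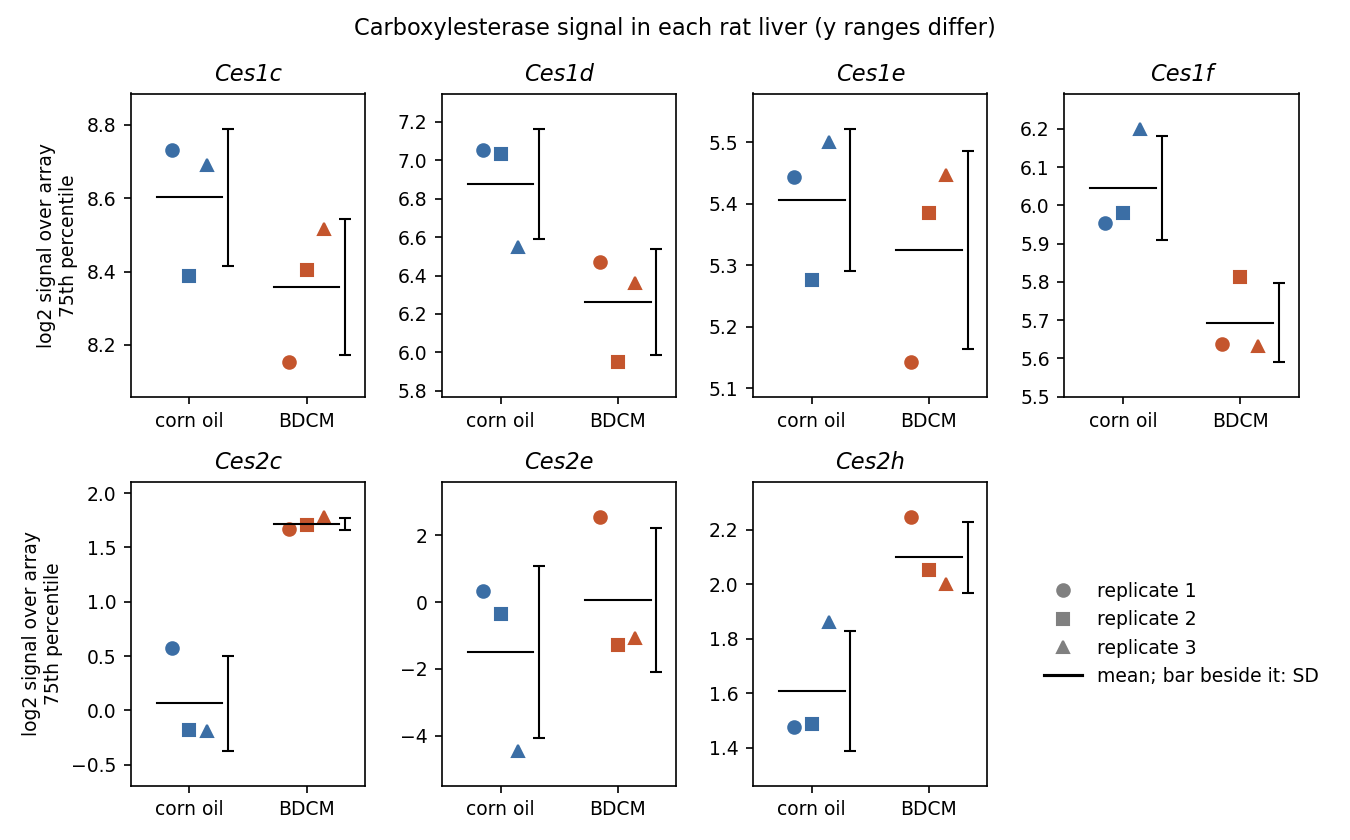
Level of each measured carboxylesterase in each liver, as log2 signal over the 75th percentile of the array (BDCM, bromodichloromethane; symbols, replicates; lines, means; bars, SD, n = 3; y ranges differ between panels). The treated values of Ces2c lie between 1.67 and 1.78, above all corn oil values, and Ces2e spans from -4.45 to 2.55.

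Ces2c encodes a liver enzyme of the Ces2 class. Its levels were 0.57, -0.18 and -0.19 in corn oil replicates 1, 2 and 3, and 1.67, 1.70 and 1.78 in treated replicates 1, 2 and 3. Every treated liver was therefore above every corn oil liver, and the treated livers lay closer together (SD 0.06) than the corn oil livers (SD 0.44). The difference was 1.65 (SE 0.22, 95% interval 1.13 to 2.18, adjusted p = 0.015), a rise of 3.14-fold with an interval of 2.18 to 4.52. With slide as a block, and on slide 1 alone, where treated replicate 1 is the only treated array, the difference was 1.60 and the call ended (adjusted p = 0.089 and 0.18). It also ended without corn oil replicate 2 (1.53, adjusted p = 0.056), without treated replicate 2 (1.66, 0.064) and without treated replicate 3 (1.62, 0.051). RefSeq lists pseudogene copies of Ces2c, and the probe's letters are not in the files used here, so how far its signal holds RNA from close copies was not tested.

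Ces2h, another member of the Ces2 class, had levels of 1.48, 1.49 and 1.86 in corn oil livers and 2.25, 2.05 and 2.00 in treated livers. The groups did not overlap, with corn oil replicate 3 nearest to the treated animals. The difference of 0.49 (SE 0.14, 95% interval 0.15 to 0.83) did not pass (adjusted p = 0.082), and it was 0.64 with slide as a block. It passed when the background was corrected with normexp (0.54, adjusted p = 0.038). It also passed when arrays were scaled to spiked-in transcripts (0.97, adjusted p = 0.0060). With normexp 3251 of 28995 features passed. With spike-in scaling 12996 passed and the median of all features was 0.48, so that pass does not set Ces2h apart.

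Ces2e differed far more between animals than between groups. Its levels were 0.32, -0.35 and -4.45 in corn oil replicates 1, 2 and 3 and 2.55, -1.30 and -1.07 in treated replicates 1, 2 and 3. Corn oil replicate 3 was the lowest and treated replicate 1 the highest of the 6, and treated replicates 2 and 3 lay between corn oil replicates 2 and 3. Processed signal ran from 34.7 to 4826 fluorescence units, and only 20 of 28995 features, or 0.0690%, had a larger range over the 6 arrays than the 6.99 log2 units of Ces2e. The difference of 1.55 had an SE of 1.56 and an interval from -2.22 to 5.32 (adjusted p = 0.57), so that neither a large rise nor a large fall lies outside it. It was 0.08 without corn oil replicate 3, 0.31 without treated replicate 1 and 4.04 on slide 1 alone. The other members had ranges between 0.36 and 1.97 log2 units.

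Among the Ces1 genes, Ces1d, an enzyme that hydrolyses stored triglyceride in the endoplasmic reticulum, had the largest difference. Its levels were 7.05, 7.03 and 6.55 in corn oil livers and 6.47, 5.95 and 6.36 in treated livers. The groups did not overlap, but corn oil replicate 3 was within 0.08 of treated replicate 1. The difference was -0.62 (SE 0.20, 95% interval -1.10 to -0.14) and did not pass (adjusted p = 0.11). Its other probe gave -0.63. With slide as a block the difference was -0.41.

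Ces1f, a close relative of Ces1d, had levels of 5.95, 5.98 and 6.20 in corn oil livers and 5.64, 5.81 and 5.63 in treated livers. All treated values lay below all corn oil values, by a narrow margin. The difference of -0.35 (SE 0.11, 95% interval -0.61 to -0.09) did not pass (adjusted p = 0.099), and the other probe of the gene gave -0.30. It was -0.41 with slide as a block.

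Ces1c, which encodes an esterase that rodents secrete into plasma, had levels of 8.73, 8.39 and 8.69 in corn oil livers and 8.15, 8.40 and 8.51 in treated livers. The groups overlapped, since corn oil replicate 2 was below treated replicates 2 and 3. The difference was -0.25 (SE 0.14, 95% interval -0.59 to 0.10, adjusted p = 0.32), and the other probes gave -0.23 and -0.20. Ces1e, known in rodents as egasyn, which holds beta-glucuronidase in the endoplasmic reticulum, had levels of 5.44, 5.28 and 5.50 in corn oil livers and 5.14, 5.39 and 5.45 in treated livers. The groups overlapped. Its difference was -0.08 (SE 0.12, 95% interval -0.37 to 0.20, adjusted p = 0.70), which leaves room for a change of up to 0.37 downward, and its other probes gave 0.01 and 0.10, so that no direction holds across its probes. With slide as a block the differences were -0.45 for Ces1c and -0.26 for Ces1e.

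**Figure D2:**
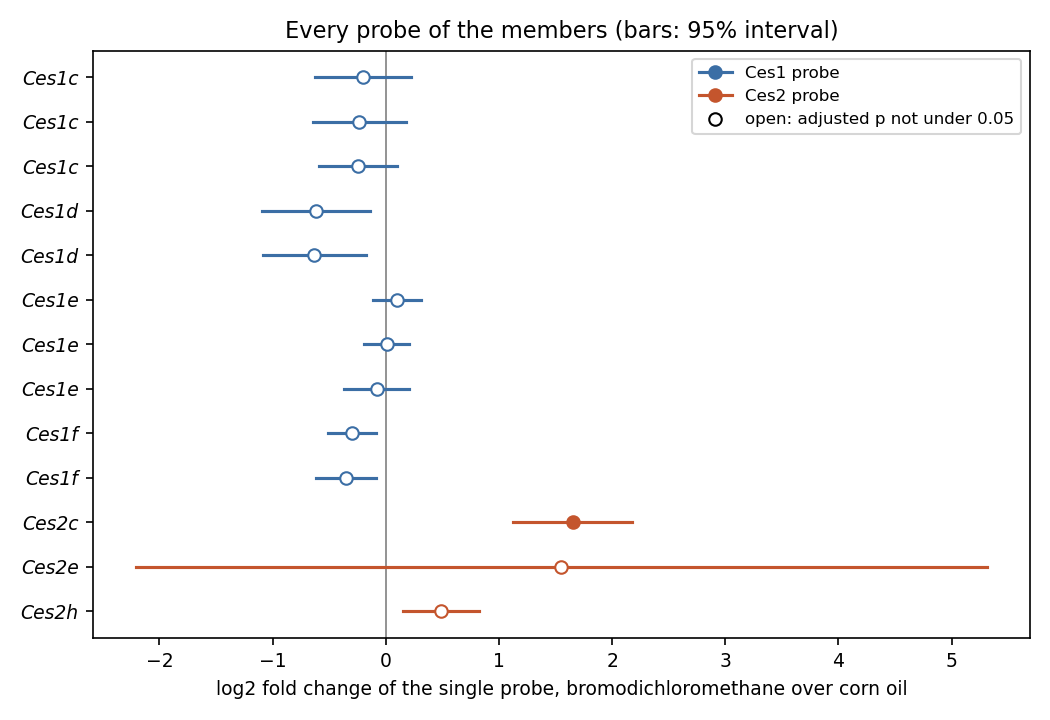
Log2 fold change of every probe of the measured carboxylesterases, bromodichloromethane over corn oil, with 95% intervals; each row is 1 probe and probes of a gene share its RNA. The Ces1d and Ces1f probes lie below 0 with intervals that do not reach 0, and the Ces1e probes lie on both sides of 0.

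Of the 10 Ces1 probes, 8 had a difference below 0 and 2, both of Ces1e, above 0, from -0.63 to 0.10, and none passed when every probe was tested on its own. Each of the 3 Ces2 genes had 1 probe, so no second probe bears on Ces2c, Ces2e or Ces2h. Scaling by spiked-in transcripts raised the median of all features to 0.48 and moved Ces1c to 0.24, Ces1e to 0.40 and Ces1f to 0.13, while Ces1d stayed below 0 at -0.13. The Ces1 directions thus depend on which reference the arrays are scaled to. The Ces2 differences were above 0 in all 22 alternative settings for each of the 3 genes. These settings drew on the same animals, so they were not independent checks. Several could not move the difference, which for Ces2c stayed at 1.65 with the replicate block and with limma's trend and robust options. Slide as a block and slide 1 alone gave the same difference, 1.60 for Ces2c. For Ces2e the count says little, since its interval ran from -2.22 to 5.32.

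**Figure D3:**
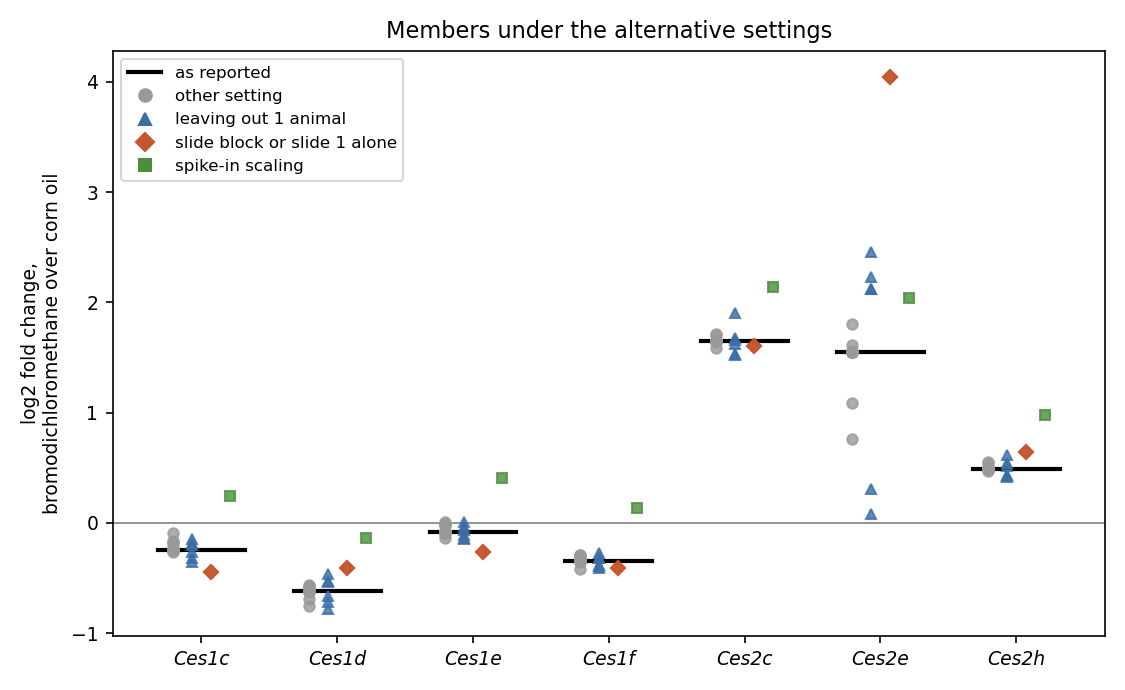
Log2 fold change of each measured carboxylesterase under the 22 alternative settings (points) beside the reported value (black line); points stand apart sideways by kind of setting. Ces2c stays between 1.52 and 2.13, Ces2e runs from 0.08 to 4.04, and spike-in scaling (green) moves all members upward.

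Other carboxylesterase genes on the arrays gave no call among those on the fixed list. Of its 11 entries, 5 were on the arrays and 4 were measured, and 0 of the 4 passed, against 9.36% of all features. By unadjusted p, 0 of the 4 were under 0.05, against 27.5% of all features. With 4 genes these counts do not set the list apart. Ces1a, which lies next to Ces1c, had a difference of -0.23 (SE 0.21, adjusted p = 0.54) and Ces2g, a near neighbour of Ces2h, of 0.15 (SE 0.09, adjusted p = 0.34). The 2 relatives Cesl1 and Ces1dl1 were looked at after their values were seen. Cesl1 had levels of 6.97, 6.90 and 6.99 in corn oil livers and 6.60, 6.65 and 6.53 in treated livers, without overlap. It was 1.28-fold lower (difference -0.36, SE 0.08, adjusted p = 0.048), but the call ended without any 1 of the 6 animals (adjusted p from 0.093 to 0.13) and with slide as a block (0.18), and spike-in scaling put it at 0.12. Its other probe gave -0.45. Ces1dl1, whose promoter window also held the motif pair, had a difference of -0.73 (SE 0.24, adjusted p = 0.12).

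**Figure D4:**
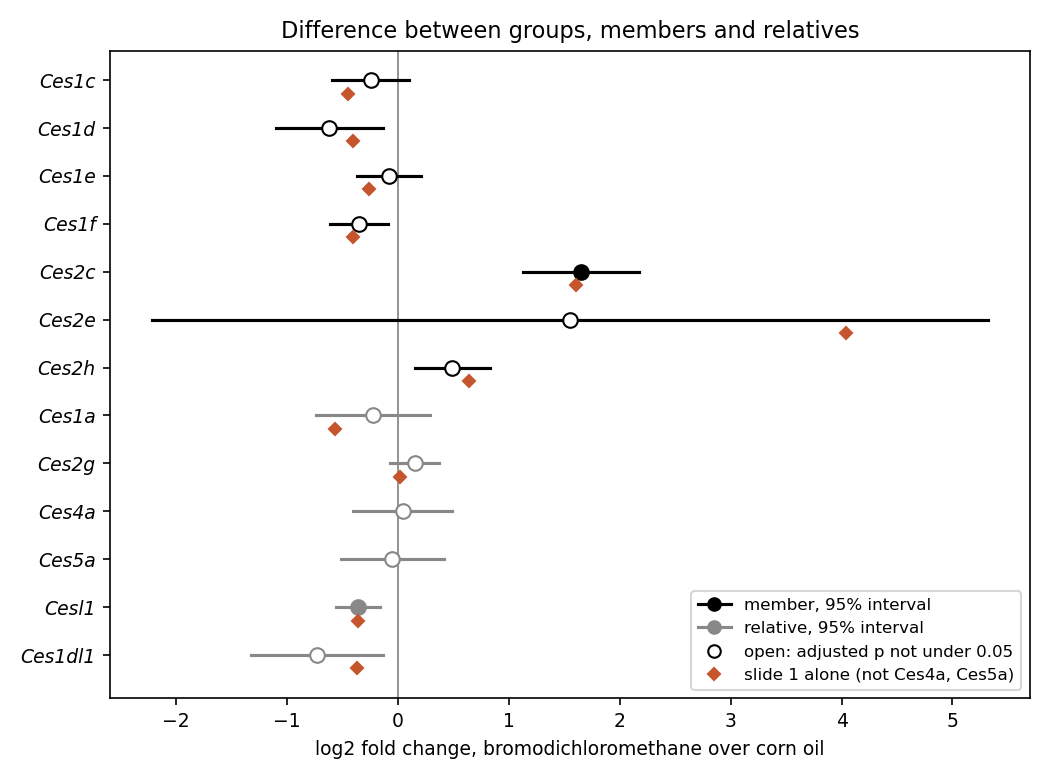
Log2 fold change of the 7 members (black) and of 6 other carboxylesterase genes (grey), bromodichloromethane over corn oil, with 95% intervals; filled circles passed an adjusted p of 0.05 and diamonds give slide 1 alone for all but Ces4a and Ces5a. Ces2c and Cesl1 are the filled circles, and the interval of Ces2e runs from -2.22 to 5.32.

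Genes that work beside the carboxylesterases were taken from 4 further lists. Their counts stand beside 5.96% of all features called higher and 3.41% called lower, and a count near these shares does not set a list apart. With spike-in scaling 12685 of 28995 features were called higher, and the median of all features was 0.48. Of 21 measured hydrolases of other esters, epoxides, amides and glucuronides, 1 rose, 1 fell and 19 did not pass, with a median difference of -0.14. With spike-in scaling 4 were higher, 0 were lower and the median was 0.34, and 3 were lower with quantile normalisation, with array weights and with limma's trend and robust options. Ephx1, the microsomal epoxide hydrolase, rose by 1.13 (SE 0.21, adjusted p = 0.029), and its groups did not overlap, with corn oil levels of 5.40, 5.30 and 5.80 and treated levels of 6.62, 6.96 and 6.30. Pon3, a lactonase of the paraoxonase family, fell by 0.37 (SE 0.08, adjusted p = 0.048). Spike-in scaling put Pon3 at 0.11, and its call ended with median centring (adjusted p = 0.084), normexp (0.071), no filter on dim probes (0.087) and slide as a random block (0.058). The call of Ephx1 ended without corn oil replicates 1 or 2 or treated replicates 1 or 2 (adjusted p from 0.074 to 0.093), and that of Pon3 without any 1 animal (from 0.071 to 0.15).

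Of 17 measured genes of retinoid storage and transport, to which the retinyl ester hydrolase activity of Ces1 enzymes is linked, 2 rose, 1 fell and 14 did not pass, with a median of -0.17. With spike-in scaling 6 were higher, 1 was lower and the median was 0.31. Adh7, a retinol-oxidising alcohol dehydrogenase, rose by 1.44 (SE 0.18, adjusted p = 0.013), and Aldh1a1, a retinaldehyde dehydrogenase, by 0.83 (SE 0.12, adjusted p = 0.017). For Rdh16, a retinol dehydrogenase that fell, the log2 difference was -1.76 (SE 0.27, adjusted p = 0.019). The call of Adh7 ended without corn oil replicate 2 or treated replicate 2 (adjusted p = 0.051 and 0.052). That of Aldh1a1 ended without corn oil replicate 2 or treated replicates 2 or 3 (from 0.056 to 0.072), and that of Rdh16 ended in every fit that left out 1 animal other than corn oil replicate 1 (from 0.053 to 0.064).

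Of 21 measured genes of triglyceride turnover and lipoprotein assembly, the pathway in which Ces1d acts, 0 passed by limma, with a median of -0.16. With spike-in scaling 6 were higher, 0 were lower and the median was 0.32, and with normexp 1 was higher and 2 were lower. Those with the smallest p were Mttp, the lipid transfer protein that loads apolipoprotein B, at 0.42 (SE 0.12, adjusted p = 0.085), and Sar1b, a transport GTPase, at -0.24 (SE 0.08, adjusted p = 0.12). Of 21 measured regulators of liver esterase and drug-handling genes, 0 rose, 1 fell and 20 did not pass, with a median of -0.19. With spike-in scaling 4 were higher, 0 were lower and the median was 0.29, and 3 were lower with array weights and with limma's trend and robust options. The gene that fell was Rxra, the partner of many nuclear receptors, with a difference of -0.51 (SE 0.10, adjusted p = 0.032), or -0.03 with spike-in scaling. Its call ended in every fit that left out 1 animal other than treated replicate 1 (adjusted p from 0.075 to 0.11). Of the 6 calls in the 4 lists, only that of Adh7 held without the filter on dim probes (adjusted p = 0.040) and with the replicate block (0.034). The others ended, at adjusted p from 0.0504 to 0.087 without the filter and from 0.054 to 0.12 with the replicate block. With slide as a block none of these 6 calls in the 4 lists held (adjusted p from 0.060 to 0.23). The blocked differences, which equal those on slide 1 with its 1 treated array, were 1.12 for Ephx1, 0.79 for Aldh1a1, 1.09 for Adh7, -1.67 for Rdh16, -0.38 for Rxra and -0.30 for Pon3, all in the reported direction.

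The tissue markers were those of liver, with all 10 hepatocyte genes measured. Of these 3 were lower and 0 higher in treated livers, against 3.41% of all features called lower and 5.96% called higher. The same shares stand beside the counts of the other marker lists. The median difference of the 10 hepatocyte genes was -0.25, or 0.23 with spike-in scaling. Their summed level, as multiples of the 75th percentile, ran from 5115 to 5743 in corn oil and from 4370 to 4826 in treated livers. The summed level of 7 measured bile duct genes ran from 10.1 to 14.2 and from 14.9 to 18.0, with 1 higher. That of 4 measured neutrophil genes ran from 1.47 to 1.89 and from 2.09 to 2.54 with 0 higher, and Mmp8, Elane, Ltf, Cxcr2 and Ngp did not pass the background filter. Of the endothelial list 6 genes were measured, 1 was lower, and the sums ran from 63.4 to 66.6 and from 52.2 to 56.2. The summed level of 8 measured red cell genes ran from 530 to 784 in corn oil and from 357 to 509 in treated livers, without overlap, with 1 lower and a median difference of -0.53, or -0.04 with spike-in scaling. That of 8 lymphocyte genes ran from 2.062 to 2.674 and from 2.673 to 3.157, with a slight overlap and 1 higher. Sums ran from 146 to 185 and from 146 to 170 for 10 macrophage genes, and from 32.8 to 42.9 and from 34.9 to 37.7 for 9 stellate genes, and 0 passed in either list. Bulk RNA does not tell fewer cells of a type from less RNA per cell, and the part of these shifts in the carboxylesterase values was not tested.

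Levels centred on the corn oil mean were also compared between Ces2c and 11405 features with a symbol over the 6 arrays. Of the 3 nearest outside the family, only Arhgef3 was well above background on all 6 arrays, at a root mean square difference of 0.23 log2 units. Arhgef3 had corn oil levels of 0.73, 0.24 and 0.27 and treated levels of 1.80, 1.82 and 1.74. Its difference was 1.37 by the probe with the highest mean, but 0.98 with the mean over its probes. The other 2, Cfap96 and Lekr1, were not well above background in any corn oil liver and entered the test only through the treated group, so their likeness to Ces2c cannot be read from these arrays. With a common floor the difference of Lekr1 was 0.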

How the data were processed

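Cy3-labelled liver RNA of 6 rats was put on 1-colour arrays. Per the submitters' processing notes, the authors used Agilent Feature Extraction 10.7. Per the file headers, the processed signal is a fluorescence intensity on a linear scale from which background has been subtracted. The authors' deposited value table holds a ratio of signal to the array's 75th percentile, borne out within 1% for at least 96.4% of probes, and was an alternative. Here log2 processed signals were scaled to that percentile. Flagged probes (27) were removed. A probe was kept when well above background on all arrays of a group, and the probe with the highest mean stood for its gene. Of 61657 probes, 27460 matched 1 RefSeq symbol (GRCr8), 0 several and 34197 none. The test was that of limma 3.58.1 under R 4.3.3 (lmFit, eBayes, two-sided), tested on simulated data. An exact permutation test of 3 against 3 cannot go below p = 0.10. The labels describe separate animals, and their number limits the precision. The files hold no mean signal, so normexp used median signal and background with an offset of 50.

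The members and lists were chosen with earlier results of these data known. Named genes were all members, up to 4 called genes per list (or the 2 of smallest p), and the 3 nearest profiles to the called member. The other settings were quantile, median and spike-in scaling, other filters, probe rules and model options, slide and replicate blocks, and leaving out each animal.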

Additional observations from a re-analysis of the deposited data

How the results depend on the processing

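The count of carboxylesterases past the threshold, 1 as reported, was 2 with normexp and with spike-in scaling, where Ces2h joined Ces2c. It was 0 with slide as a block, on slide 1 alone and with the replicate block, and ranged from 0 to 1 when 1 animal was left out. In both settings where 2 members passed, more of all features passed too. Among all features, 2715 passed as reported and 3251 with normexp. The count was 4126 with array weights, 12996 with spike-in scaling, 609 without the filter on dim probes, 350 with slide as a block, 120 on slide 1 alone, 353 with the replicate block and 335 to 1232 with 1 animal left out. Higher calls were 63.6% of calls as reported, 74.2% with median centring and 97.6% with spike-in scaling, but 54.0% with slide as a block, 43.3% on slide 1 alone, 56.1% with the replicate block and 49.6% to 66.5% with 1 animal left out, the lowest without treated replicate 2. Directions turned for Ces1c (0.24), Ces1e (0.40), Ces1f (0.13), Ces1a (0.26), Pon3 (0.11), Sar1b (0.24) and Cesl1 (0.12) with spike-in scaling, and for Ces1e with the mean over probes (0.0087) and without treated replicate 1 (0.0099), its range with 1 animal left out being -0.15 to 0.0099. Of 220 recomputed list counts, 153 stayed within 1.5 times the reported count and 67 did not. The 153 include every count that was reported as 0 and stayed at 0. Counts of 0 were reported in both directions for the other carboxylesterases and for triglyceride turnover, and for higher regulators. The 153 therefore say little about how steady the counts above 0 were. Deviations from the group mean correlated at 0.092, 0.019 and 0.12 between animals with the same replicate number. Animals with different numbers were not compared, so these values do not decide whether the animals were paired. With the replicate block Ces2c stood at an adjusted p of 0.057. Spike-in scaling subtracts a single value from each array, so it moves every difference by the same amount. The directions that turned with it are therefore not separate results. What lies behind that amount, and the cause of the other shifts, was not tested.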

Other observations

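The profile of Ces2e over the 6 arrays had no near neighbour. The closest symbol outside the family was Ggt5, a gamma-glutamyl transferase family gene, at a root mean square difference of 1.06 log2 units after centring on the corn oil mean, compared with 0.05 for Ces1c (Etfb) and Ces1f (Dtnbp1), 0.06 for Ces2h (Pim1) and 0.10 for Ces1d (Gja4). In 1 corn oil liver Ggt5 did not stand well above background. These distances were computed after the spread of Ces2e was seen. A member with a small range has near neighbours more easily, since most features on the array vary little.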
